A study of Mus musculus with 12 samples.

Results

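Glutathione transferases were followed as 8 genes chosen by symbol, Gsta4, Gstm1, Gstp1, Gsto1, Gstt1, Mgst1, Mgst2 and Mgst3, out of 24421 symbols in the count table. Members with 10 or more counts in at least 3 libraries were to be reported, and 8 of 8 met this; all 8 were also among the 13281 genes tested. The messenger RNA of KP cells was sequenced; these are mouse lung adenocarcinoma cells, and every group shares the Trp53flox/flox background. Cells carried a control guide RNA (sgCTRL, called control cells here) or a guide against Bach1 (sgBACH1, called knockout cells), both made with CRISPR/Cas9. Both kinds of cell received siRNA for 48 hours, either a control (siCTRL) or one that targets Fem1b (siFEM1B). The 4 groups of 3 libraries were sgCTRL with siCTRL, sgBACH1 with siCTRL, sgCTRL with siFEM1B and sgBACH1 with siFEM1B; the study asked how loss of BACH1 or FEM1B changes genes linked to ferroptosis. Since 1 control and 1 knockout line are named, a difference between lines that is unrelated to Bach1 and an effect of the knockout cannot be told apart.

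Glutathione transferases join the tripeptide glutathione to electrophiles such as lipid peroxidation products and foreign chemicals, which makes them more soluble and ready for export. The cytosolic enzymes fall into classes named by letters (alpha, mu, pi, omega, theta), while the microsomal enzymes are membrane proteins of another fold. Several of these genes are known targets of NRF2, an activator that binds antioxidant response elements, and BACH1 is a repressor that can occupy the same elements. FEM1B is the substrate-binding subunit of a CUL2 ubiquitin ligase.

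The members lie on 6 chromosomes of the mouse build mm10 (RefSeq annotation of GRCm38.p6, whole genes with exons and introns). Gsta4 spans chromosome 9, 78191966 to 78209349, and Gstt1 spans chromosome 10, 75783813 to 75798584. Gstm1 (108012250 to 108017973) and Mgst2 (51636912 to 51682675) lie far apart on chromosome 3. Gstp1 (4035411 to 4037912) and Gsto1 (47854973 to 47864790) are both on chromosome 19. Mgst1 is on chromosome 6 at 138140527 to 138156755 and Mgst3 on chromosome 1 at 167371966 to 167393841.

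RefSeq promoter sequence (GRCm38.p6) was found for 7 of 8 members, in 9 windows of 250 bases before a start site. The windows were searched on both strands for TGACNNNGC, the core of the antioxidant response element, and for TGAGTCA, the AP-1 core that also forms the centre of sites for NRF2 and BACH1 partners. Matches of the 2 motifs can overlap. A match was present in 3 members, Mgst1, Gstp1 and Mgst2. These are shown as 30-base stretches because Mgst1 was the member that fell furthest and because the Gstp1 stretch is also found in its neighbour Gstp2. Capitals mark the match, and the motifs in Mgst1 and Mgst2 are read on the opposite strand.
Mgst1, chr6:138140461-138140490, plus strand: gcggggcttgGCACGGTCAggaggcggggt
Gstp1, chr19:4037968-4037997, minus strand: ctccaacgtgtTGAGTCAgcatccggggcg
Gstp2, chr19:4042292-4042321, minus strand: ctccaacgtgtTGAGTCAgcatccggggcg
Mgst2, chr3:51661116-51661145, plus strand: cccaatcctgtTGACTCAactctgttgcct
The match began 56 bases before the start site in Mgst1, 74 in Gstp1, 89 in Gstp2 and 52 in Mgst2. Among 32851 mouse promoter windows of the same length, 10.2% held TGACNNNGC and 4.46% held TGAGTCA. The 30 letters printed for Gstp1 and Gstp2 are identical. In GENCODE, 30 of the 30 bases printed for Mgst1 and 18 of those for Gstp1 lie in annotated exons.

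Gstt1 and the adjacent Gstt3 were both higher in knockout cells, so a window of each is printed as well. A gene can have several start sites: the Gstt1 window and that of Mgst2 lie inside the gene spans given above, before a start site downstream of the first. The Gstt1 and Gstt3 windows printed here held neither motif within these 250 bases.
Gstt1, chr10:75797732-75797981, minus strand: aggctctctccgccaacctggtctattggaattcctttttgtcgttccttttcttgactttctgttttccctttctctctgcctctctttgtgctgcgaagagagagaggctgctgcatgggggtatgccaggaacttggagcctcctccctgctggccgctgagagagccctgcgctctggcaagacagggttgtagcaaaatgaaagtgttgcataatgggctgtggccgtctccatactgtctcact
Gstt3, chr10:75781415-75781664, minus strand: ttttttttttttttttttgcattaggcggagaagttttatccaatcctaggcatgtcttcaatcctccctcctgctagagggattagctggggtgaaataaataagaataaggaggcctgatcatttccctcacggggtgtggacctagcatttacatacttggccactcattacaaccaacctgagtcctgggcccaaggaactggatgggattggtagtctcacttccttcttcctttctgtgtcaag

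Library totals ranged from 16539168 to 22196999 counts, so that 1 count was worth 0.0446 to 0.0604 counts per 1000000 counts of the library (CPM). Fem1b itself had a log2 fold change of -1.66 ± 0.08 with its siRNA in control cells and -1.51 ± 0.08 in knockout cells, a partial knockdown. Bach1 counts differed by -0.09 ± 0.08 between knockout and control cells under control siRNA (adjusted p = 0.344); a guide-made lesion need not lower the transcript, so this checks nothing about the protein. Hmox1, a well-known BACH1 target that encodes heme oxygenase, was 2.22 ± 0.16 higher on the log2 scale in knockout cells. The sum of 7 epithelial markers, mostly keratins, was 8979 to 9382 CPM in control and 7082 to 7999 CPM in knockout cells under control siRNA, and 8576 to 9252 against 7815 to 7959 CPM under FEM1B siRNA. The sum was thus lower in knockout cells without overlap, with Krt7 at -1.96 ± 0.06 on the log2 scale under control siRNA. The single markers went both ways: under each siRNA 2 of the 7 were called higher, 3 lower and 2 not called in knockout cells. The part of these markers in the knockout comparisons was not tested. Of 7 alveolar type 2 markers Sftpa1, Sftpd and Nkx2-1 had no counts, Sftpc and Sftpb stayed under 1 CPM, and the sum of 114 to 136 CPM was nearly all Abca3. Replicate 2 of sgBACH1 with siFEM1B held the lowest level of its group for 8 of 8 members.

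Levels were first compared between genes per kilobase of exon, with the exons of all annotated transcripts of a gene merged. The order depends on that length. For Mgst2 it was 3.703 kb, while its longest protein-coding transcript in GENCODE has 603 bases. For Gsto1 it was 2.023 kb against 1182 bases, and for Mgst3 both lengths were 1097 bases. A ranking by transcript length was not tested. In sgCTRL with siCTRL Gsto1 led with 154 ± 1.38 CPM per kb (SD, n = 3 here and below). Mgst3 followed at 95.8 ± 6.79 and Gstp1 at 86.1 ± 1.21 CPM per kb, a pair whose distance was little more than the spread of Mgst3. Gstm1 stood at 74.3 ± 2.21, Gsta4 at 41.3 ± 2.60, Mgst1 at 31.4 ± 0.847 and Mgst2 at 25.5 ± 1.55 CPM per kb. Gstt1 was far below the others at 0.253 ± 0.127 CPM per kb. The order of the upper 5 was the same in each of the 4 groups. The lower 3 changed places, since in sgBACH1 with siFEM1B Gstt1 (9.86 ± 1.80 CPM per kb) stood above Mgst1 (3.40 ± 0.491 CPM per kb). In bulk RNA, fewer cells with a transcript and less transcript per cell cannot be told apart.

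**Figure D1:**
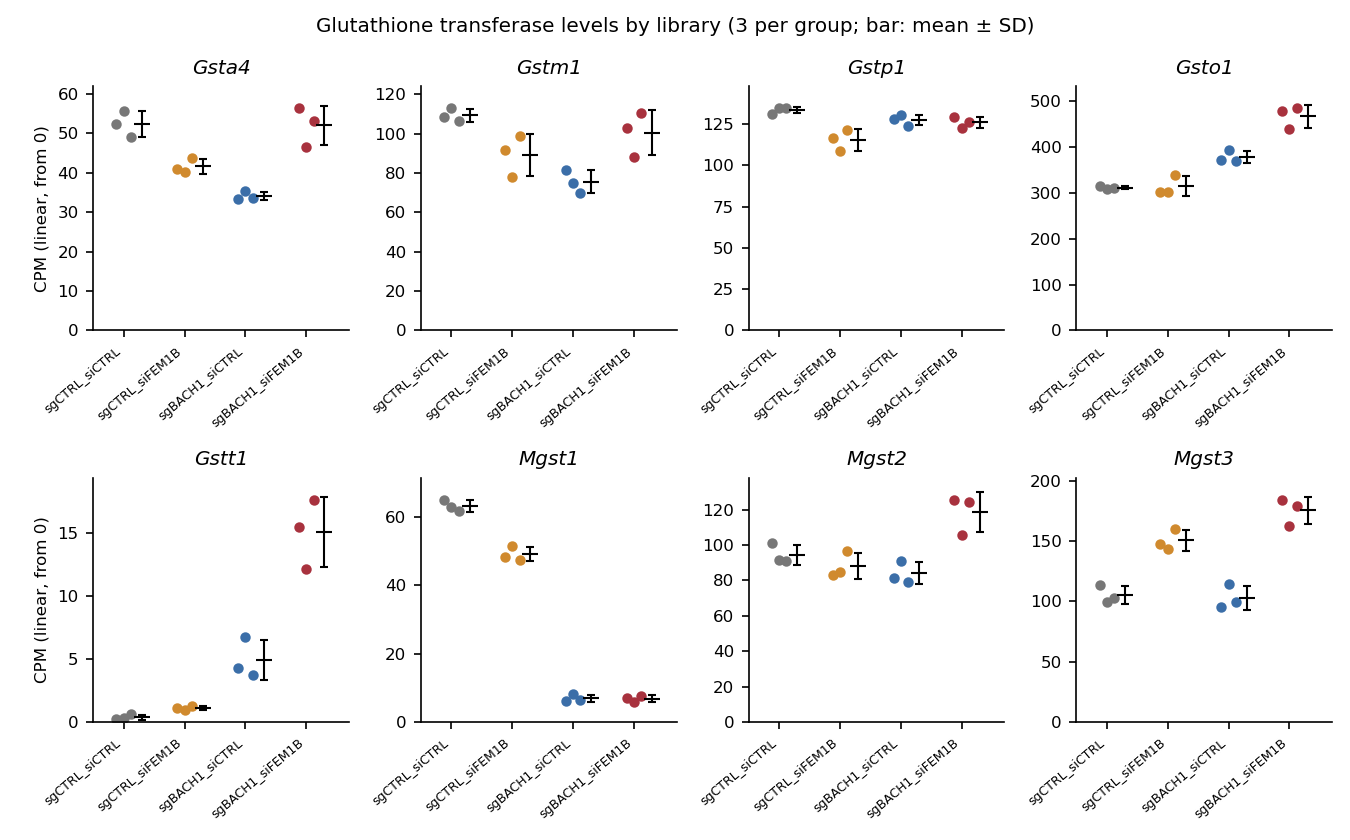
Level of each of the 8 members in every library, in CPM on a linear axis from 0; points are the 3 libraries of each group and black bars their mean ± SD. Mgst1 fell to between 5.78 and 8.13 CPM in all 6 knockout libraries, and Gstt1 reached 12.1 to 17.6 CPM in sgBACH1 with siFEM1B.

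The members differed in both directions between knockout and control cells. In knockout against control cells under control siRNA, 2 of the 8 rose (Gstt1, Gsto1), 3 fell (Mgst1, Gsta4, Gstm1) and 3 were not called by edgeR's quasi-likelihood test at a Benjamini-Hochberg adjusted p under 0.05. Of all 13281 genes tested, 50.5% were called, 24.2% higher and 26.3% lower, so the share of members called was near the background. The median log2 fold change was -0.12 over the members and -0.02 over all genes. For 7 of 8 members no library of one group lay within the range of the other, against 60.3% of all genes. The p-values measure the spread between these libraries, which the design text calls biological replicates; whether they were separate cultures is not stated.

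Mgst1 encodes a membrane-bound enzyme with both transferase and peroxidase activity that protects membrane lipids. Its level was 65.0, 62.7 and 61.6 CPM in the control libraries and 6.26, 8.13 and 6.33 CPM in the knockout libraries under control siRNA. Every knockout library lay far below every control library. The log2 fold change was -3.19 ± 0.10 (adjusted p = 1.31e-15), which is 9.13-fold lower. Under FEM1B siRNA the levels were 48.3, 51.3 and 47.5 CPM in control cells and 7.03, 5.78 and 7.72 CPM in knockout cells. The groups were again fully apart, with a log2 fold change of -2.84 ± 0.10 (adjusted p = 1.39e-14), or 7.17-fold lower. Its nearest tested neighbours on chromosome 6, chosen after their values were seen, were Dera, 302.7 kb away, at 0.18 ± 0.07 and Strap, 388.6 kb away, at 0.21 ± 0.05 in log2 fold change under control siRNA. On the other side, Plekha5 was at -0.22 ± 0.06 and Aebp2 at 0.29 ± 0.05. Under FEM1B siRNA Dera and Strap were not called, Plekha5 was at -0.27 ± 0.06 and Aebp2 at 0.16 ± 0.05.

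A small fibroblast marker signal moved with Mgst1. Of 5 fibroblast markers, Pdgfra, Dcn and Lum stayed under 1 CPM in every group. The sum of the 5 was 22.9 to 24.6 CPM and 18.2 to 21.5 CPM in control cells under control and FEM1B siRNA, and 8.58 to 10.7 CPM and 9.45 to 11.2 CPM in knockout cells. Nearly all of it was Col1a1 (log2 fold change -1.42 ± 0.10 under control siRNA). Col1a2 was also lower (-1.36 ± 0.56), while Pdgfra, the third marker tested, was higher (2.73 ± 0.62). The part of these markers in the Mgst1 result was not tested.

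Gstt1, a theta-class enzyme known for handling small halogenated compounds, moved the other way. It had 5, 7 and 12 counts (0.227, 0.330 and 0.602 CPM) in the control libraries and 82, 135 and 81 counts (4.31, 6.73 and 3.74 CPM) in the knockout libraries under control siRNA. All knockout libraries were above all control libraries. The log2 fold change was 3.67 ± 0.33 (adjusted p = 1.23e-08), 12.7-fold higher, against a control level so low that 1 count alters it. Under FEM1B siRNA the counts were 25, 19 and 23 (1.12, 0.927 and 1.25 CPM) in control cells. In knockout cells they were 318, 225 and 292 (15.4, 12.1 and 17.6 CPM). The difference there was 3.78 ± 0.24 on the log2 scale (adjusted p = 1.06e-10), 13.7-fold higher.

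Gsta4 and Gstm1 fell in knockout cells under control siRNA. Gsta4 encodes the alpha-class enzyme that prefers 4-hydroxynonenal, an aldehyde product of lipid peroxidation. It stood at 52.3, 55.5 and 48.9 CPM in control cells and 33.4, 35.3 and 33.7 CPM in knockout cells, without overlap (log2 fold change -0.61 ± 0.08, adjusted p = 1.2e-06). Gstm1, the main mu-class enzyme in many mouse tissues, stood at 109, 113 and 107 CPM against 81.7, 75.2 and 70.1 CPM. Its groups did not overlap either (-0.53 ± 0.09, adjusted p = 2.85e-05). Of 50-base windows in the Gstm1 transcript, 23.15% also occur in transcripts of other genes, so its counts are less certain than those of Gsta4, which shares none.

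Gsto1, an omega-class enzyme with thioltransferase and dehydroascorbate reductase activity, was 315, 310 and 311 CPM in control cells and 372, 394 and 369 CPM in knockout cells under control siRNA. The libraries did not overlap, and the log2 fold change was 0.28 ± 0.06 (adjusted p = 0.000305). The median log2 fold change of 472 tested genes on chromosome 19 was 0.44, above that of Gsto1. With the chromosome median removed (limma on shifted log2 CPM), Gsto1 was lower in knockout cells (-0.15, adjusted p = 0.0183). What shifts chromosome 19 was not tested.

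Gstp1, the pi-class enzyme often abundant in tumours, was not called under control siRNA. It stood at 131, 134 and 134 CPM in control cells and 128, 130 and 124 CPM in knockout cells (-0.07 ± 0.05, adjusted p = 0.317). The libraries did not overlap but lay close. Relative to the chromosome 19 median it was lower (-0.50, adjusted p = 1.52e-07). Of its 50-base windows, 62.31% are shared, most of them with Gstp2, so reads of the 2 genes are hard to separate.

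Mgst2 and Mgst3, membrane enzymes of the family that also makes leukotriene C4, were not called under control siRNA. Mgst2 was 101, 91.4 and 91.2 CPM in control cells and 81.6, 91.1 and 79.3 CPM in knockout cells (-0.17 ± 0.08, adjusted p = 0.0691). Leaving out replicate 2 of sgBACH1 with siCTRL brought it to -0.23 (adjusted p = 0.0277), and leaving out replicate 2 of sgBACH1 with siFEM1B gave an adjusted p of 0.0366. Mgst3 was 113, 99.0 and 103 CPM against 95.0, 114 and 99.4 CPM, with overlapping groups (-0.03 ± 0.07, adjusted p = 0.755).

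Under FEM1B siRNA the same comparison of knockout with control cells gave another picture. Here 6 of 8 members were higher (Gstt1, Gsto1, Mgst2, Gsta4, Mgst3, Gstp1), Mgst1 was lower, and Gstm1 was not called. Without replicate 2 of sgBACH1 with siFEM1B or replicate 3 of sgCTRL with siFEM1B, 7 were higher and 1 lower. It was 4 higher and 1 lower without replicate 1 of sgBACH1 with siFEM1B or replicate 2 of sgCTRL with siFEM1B. With DESeq2, or with its scaling factors in edgeR, 5 were higher and 1 lower. Of all genes tested, 54.6% were called, 28.2% higher and 26.4% lower. The median log2 fold change was 0.27 over the members and 0.01 over all genes, and replicates did not overlap for 7 of 8 members against 57.0% of genes.

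Gsto1 was 302, 301 and 339 CPM in control cells and 478, 439 and 485 CPM in knockout cells under FEM1B siRNA. The groups were well apart (0.57 ± 0.06, adjusted p = 4.46e-08), and the rise was 0.14 with the chromosome median removed (adjusted p = 0.0289). Mgst2 was 83.3, 84.7 and 96.5 CPM against 126, 106 and 124 CPM, without overlap (0.43 ± 0.08, adjusted p = 9.01e-05). Under control siRNA Mgst2 had been at -0.17 ± 0.08, in the other direction, and was not called in the main fit.

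Gsta4 was 41.0, 40.1 and 43.7 CPM in control cells and 56.3, 46.5 and 53.0 CPM in knockout cells under FEM1B siRNA (0.32 ± 0.08, adjusted p = 0.00124). All knockout libraries were higher, the reverse of the direction under control siRNA. On chromosome 9 the median was 0.29, and with it removed the Gsta4 difference was 0.03 (adjusted p = 0.798), so that call ended. Gstm1 was 91.8, 77.8 and 98.7 CPM against 103, 88.0 and 111 CPM, with overlap (0.17 ± 0.08, adjusted p = 0.101). It was called higher without replicate 3 of sgCTRL with siFEM1B (0.23, adjusted p = 0.0311), without replicate 2 of sgBACH1 with siFEM1B (0.25, adjusted p = 0.0122) and with chromosome medians removed (0.29, adjusted p = 0.00972).

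The smaller calls under FEM1B siRNA were less secure. Mgst3 was 147, 144 and 160 CPM in control cells and 184, 163 and 179 CPM in knockout cells, without overlap (0.22 ± 0.07, adjusted p = 0.012). Its adjusted p was 0.0694 without replicate 2 of sgCTRL with siFEM1B and 0.0631 without replicate 1 of sgBACH1 with siFEM1B. Gstp1 was 116, 108 and 121 CPM against 129, 123 and 126 CPM (0.13 ± 0.05, adjusted p = 0.04998). Its groups did not overlap, yet the call was lost in 10 of 12 fits that left out a library, and with the chromosome 19 median removed Gstp1 was lower (-0.31, adjusted p = 4.93e-05).

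**Figure D2:**
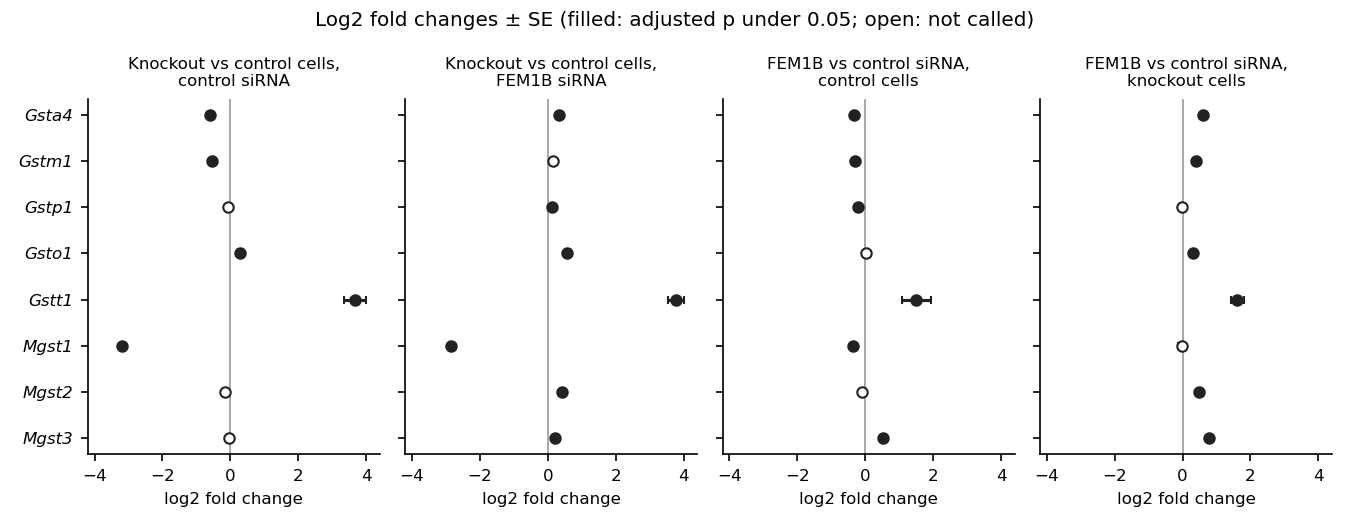
Log2 fold change ± SE of each member in 4 comparisons (x axis, log2 scale; bars shorter than a point are hidden); filled points passed the adjusted p threshold of 0.05. Mgst1 at -3.19 and -2.84 and Gstt1 at 3.67 and 3.78 stand far from the other members in both knockout comparisons.

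**Figure D3:**
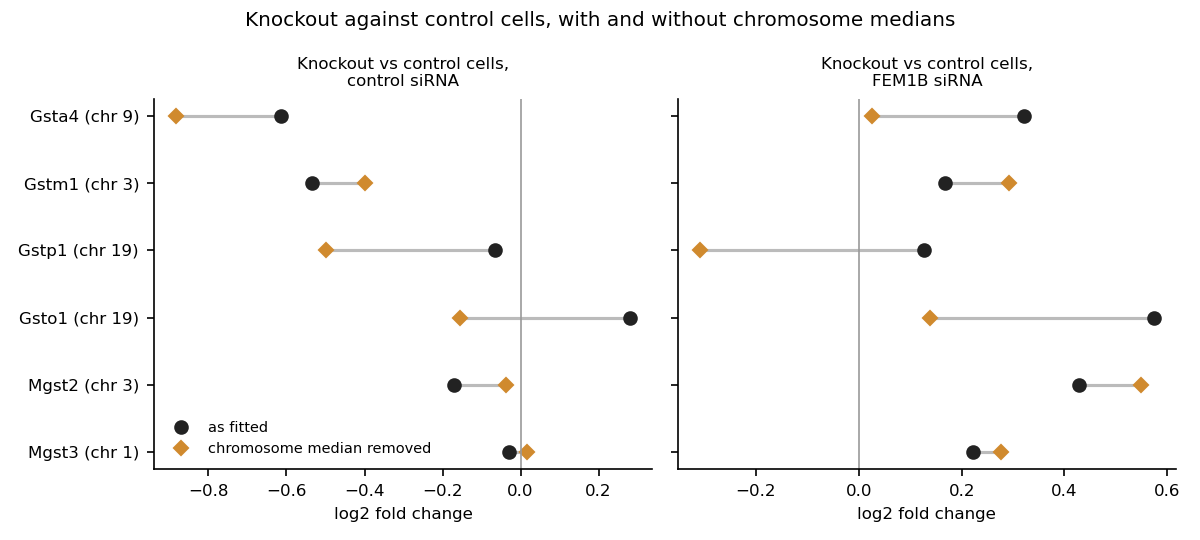
Knockout against control log2 fold change (x axis) of the 6 members other than Gstt1 and Mgst1, as fitted (black circles) and after subtracting the median of the member's chromosome (orange diamonds). Gsto1 crossed 0 under control siRNA, from 0.28 to -0.15, and Gstp1 crossed 0 under FEM1B siRNA, from 0.13 to -0.31.

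The effect of FEM1B siRNA was then taken in each line. These comparisons share libraries with those above, so values are set side by side. In control cells 2 of 8 members rose (Gstt1, Mgst3) and 4 fell (Mgst1, Gsta4, Gstm1, Gstp1), where 45.0% of all genes were called, 22.1% higher and 22.9% lower. Replicates did not overlap for 6 of 8 members, against 52.1% of genes. The median was -0.16 over the members and 0 over all genes.

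In knockout cells 6 of 8 members rose (Mgst3, Gstt1, Gsta4, Mgst2, Gsto1, Gstm1) and the other 2, Gstp1 and Mgst1, were not called. Of all genes 41.7% were called, 21.9% higher and 19.8% lower. The members' median was 0.45 and that of all genes 0.02, and replicates did not overlap for 6 of 8 members against 51.5% of genes. The summed level of the 8 members was 857 to 887 CPM in sgCTRL with siCTRL, 808 to 909 CPM in sgCTRL with siFEM1B, 786 to 855 CPM in sgBACH1 with siCTRL and 983 to 1104 CPM in sgBACH1 with siFEM1B. Gsto1 was the largest contributor to that sum, and the 3 libraries of sgBACH1 with siFEM1B lay above the other 9. That separation depended on Gsto1, at 439 to 485 CPM in those libraries. Without Gsto1 the sum of replicate 2 of sgBACH1 with siFEM1B lay below that of replicate 1 of sgCTRL with siCTRL.

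Mgst3 and Gstt1 rose with the siRNA in both lines. Mgst3 went up 1.43-fold in control cells (log2 fold change 0.52 ± 0.07, adjusted p = 9.11e-06) and 1.70-fold in knockout cells (0.77 ± 0.07, adjusted p = 9.78e-08). For Gstt1 the rises were 1.51 ± 0.42 (adjusted p = 0.00654, 2.84-fold) and 1.61 ± 0.20 (adjusted p = 2.26e-06, 3.05-fold). In neither gene did the libraries of the 2 siRNAs overlap within a line.

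Gsta4 and Gstm1 fell in control cells and rose in knockout cells. Gsta4 changed by -0.33 ± 0.07 (adjusted p = 0.0013) and 0.61 ± 0.08 (adjusted p = 3.36e-06). Gstm1 changed by -0.29 ± 0.08 (adjusted p = 0.0079) and 0.41 ± 0.09 (adjusted p = 0.000699), and its fall was not called without replicate 2 of sgCTRL with siFEM1B (-0.19, adjusted p = 0.0795). In absolute levels, the ranges of both genes in sgBACH1 with siFEM1B overlapped those in sgCTRL with siCTRL, a comparison that was not tested. Gsta4 was at 46.5 to 56.3 CPM against 48.9 to 55.5 CPM, and Gstm1 at 88.0 to 111 CPM against 107 to 113 CPM. With chromosome medians removed, Gsta4 was at -0.88 in knockout cells under control siRNA and rose by 0.60 with FEM1B siRNA in knockout cells. For Gstm1 these values were -0.40 and 0.40.

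Of the remaining members, Mgst2 and Gsto1 rose with the siRNA in knockout cells, Mgst2 by 0.50 ± 0.08 (adjusted p = 3.36e-05) and Gsto1 by 0.31 ± 0.06 (adjusted p = 0.000191). In control cells their values were -0.10 ± 0.08 and 0.01 ± 0.06 (adjusted p = 0.291 and 0.891). Mgst1 (-0.36 ± 0.08, adjusted p = 0.00114) and Gstp1 (-0.21 ± 0.05, adjusted p = 0.00324) fell in control cells. In knockout cells both were at -0.02 (SE 0.12 for Mgst1 and 0.05 for Gstp1, adjusted p = 0.929 and 0.839). Without replicate 2 of sgBACH1 with siFEM1B these were 0.090 for Mgst1 and 0.0032 for Gstp1.

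Nfe2l2, which encodes NRF2, was lower with FEM1B siRNA in both lines, at -1.07 ± 0.06 (adjusted p = 1.07e-10) for control and -0.93 ± 0.06 (adjusted p = 9.72e-10) for knockout cells on the log2 scale. Of 5 leukocyte markers, Adgre1 and Cd3e had no counts and Ptprc and Lyz2 stayed under 1 CPM. Their sum, nearly all Cd68, was 7.59 to 9.51 CPM in control cells under control siRNA, 21.1 to 30.0 CPM after FEM1B siRNA, and 5.34 to 6.05 against 8.51 to 11.1 CPM in knockout cells. The part of either in the members' changes was not tested.

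The interaction, which subtracts the siRNA effect of control cells from that of knockout cells, tests this difference directly. It was called for 4 of 8 members, each with a higher siRNA effect in knockout than in control cells: Gsta4, Gstm1, Mgst2 and Gsto1. Of all genes tested, 6.08% were called, 3.48% higher and 2.60% lower (462 and 345 genes); with DESeq2's scaling factors in the same fit the split was 369 higher and 441 lower, and with DESeq2 itself 515 and 614. The median interaction was 0.32 over the members and 0.02 over all genes.

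For Gsta4 the interaction was 0.94 ± 0.11 (adjusted p = 5.97e-05), for Gstm1 0.70 ± 0.12 (adjusted p = 0.00212) and for Mgst2 0.60 ± 0.11 (adjusted p = 0.00326). These 3 calls held in each of the 12 fits that left out a library. That of Gsto1, 0.29 ± 0.08 (adjusted p = 0.032), was lost in 9 of the 12, with adjusted p-values up to 0.113, and was kept without replicate 2 of sgBACH1 with siCTRL, replicate 3 of sgCTRL with siFEM1B or replicate 2 of sgBACH1 with siFEM1B. Chromosome medians hardly touch this test, and with them removed the 4 values were 0.91, 0.69, 0.59 and 0.29.

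The difference was not called for Mgst1 (0.35 ± 0.15, adjusted p = 0.16), Mgst3 (0.25 ± 0.10, adjusted p = 0.139), Gstp1 (0.19 ± 0.08, adjusted p = 0.128) or Gstt1 (0.10 ± 0.57, adjusted p = 0.94). The wide error of Gstt1 reflects its few counts in control cells. Without replicate 2 of sgBACH1 with siFEM1B, Mgst1 (0.46, adjusted p = 0.0411) and Mgst3 (0.30, adjusted p = 0.0469) were called too, 6 of 8 members in all.

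**Figure D4:**
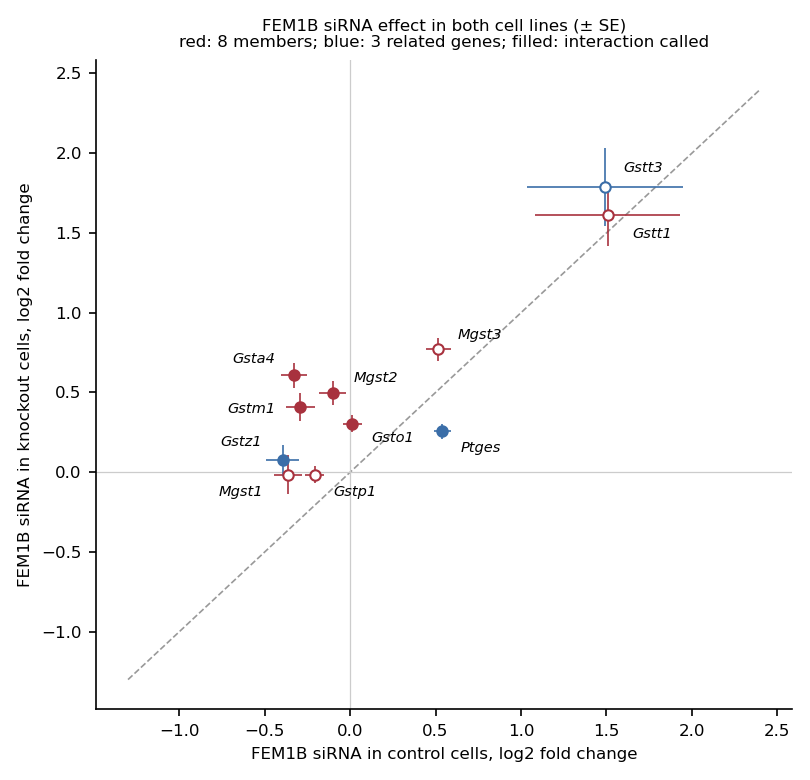
Effect of FEM1B siRNA in control cells (x axis) against that in knockout cells (y axis), both as log2 fold change ± SE, for the 8 members (red) and the related Gstt3, Gstz1 and Ptges (blue); the dashed line marks equal effects and filled points a called interaction. Gsta4 (-0.33 and 0.61) lies furthest above the line among the members, while Gstt1 (1.51 and 1.61) lies close to it.

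Other genes of the family were sparser. Of 24 related genes listed, 22 were in the table and 12 were abundant enough to test. In knockout cells 2 of the 12 were higher and 5 lower under control siRNA, and 4 higher and 2 lower under FEM1B siRNA. Of all genes, 50.5% and 54.6% were called in these 2 comparisons. With chromosome medians removed, the calls of Ptges (-0.053, adjusted p = 0.372) and Gstm5 under control siRNA and of Gsto2 under FEM1B siRNA (0.10, adjusted p = 0.519) were lost. Under FEM1B siRNA Gstm6 (1.0), Gstp2 (-0.59) and Gstcd (0.25) were then called. The siRNA raised 4 and lowered 3 in control cells and raised 6 and lowered 2 in knockout cells, where 45.0% and 41.7% of all genes were called. Among the 4 raised in control cells, the calls of Gstm5 and Gstm7 were lost in 7 and 8 of the 12 fits that left out a library; Gstm7 was at 1.28, and at 0.82 without replicate 3 of sgCTRL with siFEM1B. The interaction was called higher for Gstz1 (0.47 ± 0.14, adjusted p = 0.0465) and lower for Ptges (-0.28 ± 0.07, adjusted p = 0.0194). Gsta3 and Gstk1 had no counts in any library.

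Gstt3, a theta-class relative 2.4 kb from Gstt1, followed its neighbour. Its levels were 0.136, 0.330 and 0.903 CPM in control cells under control siRNA and 3.16, 4.14 and 3.23 CPM in knockout cells under control siRNA. With FEM1B siRNA they were 1.78, 1.37 and 0.542 CPM in control cells and 13.4, 11.2 and 11.9 CPM in knockout cells. Knockout libraries lay above control libraries under each siRNA, by 2.96 ± 0.38 on the log2 scale under control siRNA (adjusted p = 2.35e-06) and 3.26 ± 0.28 under FEM1B siRNA (adjusted p = 9.1e-09). The first was 3.89 without replicate 3 of sgCTRL with siCTRL.

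With FEM1B siRNA, Gstt3 rose by 1.49 ± 0.46 (adjusted p = 0.0115) in control cells, although libraries overlapped there, and by 1.79 ± 0.24 (adjusted p = 8.4e-06) in knockout cells. The rise in control cells was 2.41 without replicate 3 of sgCTRL with siCTRL. It was not called without replicate 1 (1.04) or 2 (1.32) of that group or replicate 1 of sgCTRL with siFEM1B (1.13), with adjusted p-values of 0.0697, 0.0505 and 0.0778. The next tested genes around the pair, chosen after their values were seen, were Ddt at 0.07 ± 0.10 and Mif at 0.33 ± 0.10 in knockout cells under control siRNA. Ddt, whose product is a relative of the cytokine MIF, rose with the siRNA by 0.64 ± 0.09 and 0.93 ± 0.09 in the 2 lines. Of the Gstt3 exons, 13.64% overlap Gm20441 on the same strand, so part of its counts could not be assigned with certainty.

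Gstm4, a mu-class gene 12.6 kb from Gstm1, had 0 counts in control cells under control siRNA and 71 counts over the 3 knockout libraries. Under FEM1B siRNA it had 1 count in control cells and 55 in knockout cells, a ratio of 60.6 with an exact 95% interval of 10.4 to 2435 that covers counting error only. In the same comparisons Gstm1 was lower and not called. Gstm2, Gstm5 and Gstp2 were lower in knockout cells under control siRNA, Gstm2 by -0.97 ± 0.30 (adjusted p = 0.0115), Gstm5 by -0.34 ± 0.10 (adjusted p = 0.00821) and Gstp2 by -0.60 ± 0.24 (adjusted p = 0.0411). The Gstm2 and Gstm5 calls were each lost in 1 of 12 fits that left out a library, and that of Gstp2 in 4. The 12 include fits that left out a library of a group not compared, which hardly move these values. Without replicate 1 of sgCTRL with siCTRL, Gstp2 was at -0.31, and with chromosome medians removed Gstm5 was not called (-0.21, adjusted p = 0.101).

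Further relatives changed with the siRNA. Gstcd, a little-studied gene with a transferase-like domain, had a siRNA effect of -0.71 ± 0.09 (adjusted p = 4.1e-06) in the control line and -0.61 ± 0.09 (adjusted p = 2.85e-05) in the knockout line. Ptges, the prostaglandin E synthase that uses glutathione, rose by 0.54 ± 0.05 (adjusted p = 3.79e-08) and 0.26 ± 0.05 (adjusted p = 0.000292). Ptges2, another prostaglandin E synthase, fell in all 4 comparisons, from -0.24 ± 0.09 to -0.63 ± 0.10; its siRNA call in control cells was lost in 6 of 12 fits that left out a library. Gsto2, the omega-class neighbour of Gsto1, rose by 0.67 ± 0.12 with the siRNA in knockout cells (adjusted p = 0.000172). Gstm6 (1.59 ± 0.43, adjusted p = 0.00564), Gstm7 (1.86 ± 0.67, adjusted p = 0.0309) and Gstm5 (0.61 ± 0.10, adjusted p = 5.49e-05) also rose there, the call of Gstm7 being lost in 3 of 12 such fits and its value 3.43 without replicate 3 of sgBACH1 with siCTRL. Gstm6 and Gstm7 had few counts. In knockout cells Gstm6 had 7, 9 and 4 counts under control siRNA and 22, 16 and 18 under FEM1B siRNA. For Gstm7 these were 0, 2 and 8 against 11, 10 and 13.

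**Figure D5:**
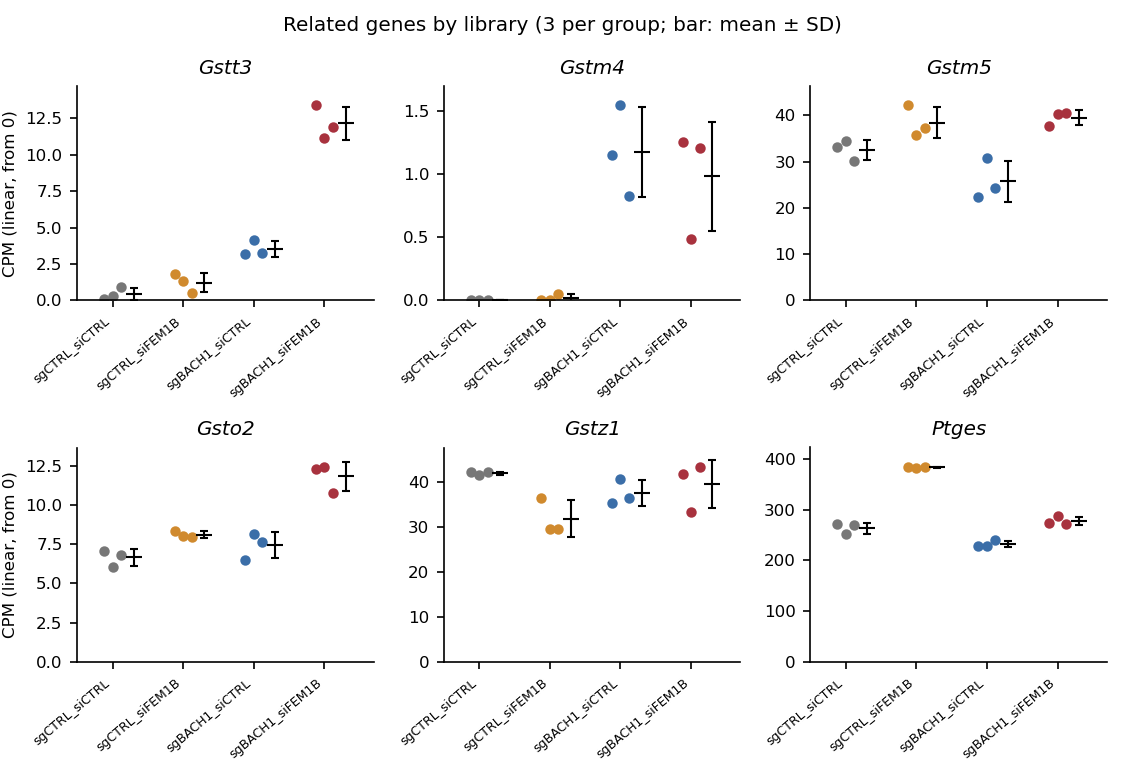
Level of 6 related genes in every library, in CPM on a linear axis from 0, with the 3 libraries of each group as points and mean ± SD as black bars. Gstt3 reached 11.2 to 13.4 CPM in sgBACH1 with siFEM1B, and Gstm4 had 0 counts in the 3 libraries of sgCTRL with siCTRL.

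Genes that supply, use or clear glutathione were counted next, with the shares of all genes called as background. In knockout against control cells 50.5% of all genes were called under control siRNA (24.2% higher) and 54.6% under FEM1B siRNA (28.2% higher). For the siRNA the shares were 45.0% in control cells (22.1% higher) and 41.7% in knockout cells (21.9% higher). The lists were not tested as sets. Of 13 genes of glutathione synthesis and recycling, 4 were higher and 4 lower in knockout cells under control siRNA, and 8 were higher and 2 lower under FEM1B siRNA. Cth, which makes cysteine, was higher by 1.58 ± 0.15 (adjusted p = 4.03e-08) and 2.02 ± 0.17 (adjusted p = 7.11e-09). Gclm, the modifier subunit of glutamate-cysteine ligase, was higher by 0.44 ± 0.06 (adjusted p = 8.15e-06) and 0.78 ± 0.06 (adjusted p = 3.8e-09). Gsr, glutathione reductase, was lower by -0.53 ± 0.06 (adjusted p = 1.2e-07) and -0.42 ± 0.06 (adjusted p = 3.12e-06).

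FEM1B siRNA lowered 9 of these 13 genes and raised 1 in control cells, and lowered 5 and raised 3 in knockout cells. Slc7a11, the cystine importer, changed by -1.56 ± 0.20 (adjusted p = 2.94e-06) and -0.91 ± 0.19 (adjusted p = 0.000762). Pgd, which regenerates NADPH, changed by -0.51 ± 0.05 (adjusted p = 1.76e-07) and -0.27 ± 0.05 (adjusted p = 0.000341). The interaction was called for Gclm (0.33 ± 0.09, adjusted p = 0.0318) and G6pdx (0.29 ± 0.07, adjusted p = 0.0189).

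Among 9 tested glutathione peroxidases and glutaredoxins, 1 was higher and 4 lower in knockout cells under control siRNA, and 3 higher and 2 lower under FEM1B siRNA. Gpx8, a peroxidase of the endoplasmic reticulum, was lower by -0.81 ± 0.09 (adjusted p = 1.32e-07) and -1.0 ± 0.09 (adjusted p = 7.45e-09), and Gpx1 was higher by 0.49 ± 0.07 (adjusted p = 5.04e-06) and 0.20 ± 0.07 (adjusted p = 0.0166). The siRNA raised 1 and lowered 3 in control cells, and in knockout cells it lowered 1, Prdx6 (-0.44 ± 0.06, adjusted p = 6.76e-06).

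Genes that export or break down glutathione conjugates were called in both directions. Of 16 tested, 5 were higher and 3 lower in knockout cells under control siRNA, and 7 higher and 4 lower under FEM1B siRNA. The siRNA raised 4 and lowered 5 in control cells and raised 5 and lowered 6 in knockout cells. Abcc1, the best-known exporter of glutathione conjugates, changed by -0.43 ± 0.06 (adjusted p = 1.09e-05) and -0.59 ± 0.06 (adjusted p = 3.53e-07) with the siRNA. Abcg2, a multidrug exporter, was higher in knockout cells by 1.13 ± 0.13 (adjusted p = 6.2e-07) under control siRNA.

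Of 6 other glutathione-dependent enzymes, 1 was higher and 2 lower in knockout cells under control siRNA and 3 were higher under FEM1B siRNA. Hagh, the glyoxalase that releases glutathione, rose with the siRNA by 0.58 ± 0.06 (adjusted p = 4.52e-07) and 0.73 ± 0.06 (adjusted p = 3.87e-08). Glo1, the enzyme acting just before it, fell with it in control cells (-0.39 ± 0.06, adjusted p = 6.18e-05).

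The profile of each member over the 12 libraries was also set beside those of all well-measured genes. The gene most like Mgst1 was Pcolce, an enhancer of procollagen processing, with a Pearson r of 0.998. Gstt1 was most like Sema4b (0.989), Mgst3 most like B3galt4 (0.987) and Gsto1 most like Etfa (0.987). Gsta4 was most like another member, Gstm1 (0.908), which in turn was closest to 3110062M04Rik (0.933). For Mgst2 the closest gene was Mpp1 (0.932) and for Gstp1 Cdk7 (0.926). These values describe profiles that largely separate 4 groups of shared libraries, and carry no test.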

How the data were processed

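The authors deposited a table of whole-number counts per gene symbol for 12 libraries, not normalized. Libraries were stranded poly(A) libraries, per the labels' protocols. Subread, featureCounts 1.6.4, SAMtools 1.9, DESeq2 1.26.0 and mm10 are listed without roles, per the submitters' processing notes; the sources used here do not give the annotation or the strand setting, which matters where genes overlap or share sequence. The members and gene lists were chosen with earlier results of these data known.

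All 24421 symbols were used. edgeR 4.0.16 (R 4.3.3) kept 13281 genes with filterByExpr at a minimum count of 10. Counts were scaled by TMM factors (0.989 to 1.01). A quasi-likelihood model with 1 mean per group was fitted to all 12 libraries (8 residual degrees of freedom), and 5 contrasts were tested, two-sided, with Benjamini-Hochberg adjustment over all genes kept and a threshold of 0.05. Adjusted p-values are from this fit unless stated. Standard errors were derived from each log2 fold change and its F statistic. Replicate pairs differed by more than sampling noise (chi-square of 2.50 to 13.7 per degree of freedom). Scripts were tested on simulated data.

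Named were all 8 members, each tested relative, up to 2 rises and 2 falls per contrast and glutathione list, of which the text gives some, and the genes with the highest correlation with each member. Exon lengths, overlaps and shared 50-base windows came from GENCODE M21 (GRCm38), positions and promoters from RefSeq GRCm38.p6. Alternatives were DESeq2 1.42.0, its scaling factors in edgeR, no filter on low counts, an average log2 CPM of at least 3, only the groups compared, a replicate block, chromosome medians removed (limma on log2 CPM shifted per library), each library left out and, added after seeing the data, limma 3.58.1 on log2 CPM. Gsta13 and Gstp3 were not analysed here. A further part of the shared genotype is not reported here.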

Additional observations from a re-analysis of the deposited data

Results flagged for a closer look

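For 6 genes the effect of FEM1B siRNA differed between knockout and control cells in the interaction test of edgeR's quasi-likelihood fit. In log2 units the difference was 0.935 for Gsta4, 0.702 for Gstm1, 0.600 for Mgst2 and 0.294 for Gsto1. Among related genes it was 0.468 for Gstz1, which acts in tyrosine breakdown, and -0.284 for Ptges. Gstz1 stood at 42.2, 41.6 and 42.1 CPM in control cells under control siRNA and 36.5, 29.6 and 29.4 CPM after the siRNA, without overlap. In knockout cells it stood at 35.3, 40.7 and 36.5 CPM without and 41.7, 33.4 and 43.3 CPM with the siRNA, which overlap. The Gstz1 call (adjusted p = 0.0465) was lost in 9 of 12 fits that left out a library, and that of Ptges (adjusted p = 0.0194) in 4 of 12.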

How the results depend on the processing

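Over the members, 733 of 787 recomputed values kept direction and call, 29 lost a call, 11 gained one and 14 changed sign. The 787 include fits that left out a library of a group not compared. Such a fit hardly moves the log2 fold change, so its agreement in direction was fixed in advance and is no check. With chromosome medians removed, the knockout difference under control siRNA became -0.15 for Gsto1, 0.017 for Mgst3, -0.28 for Gsto2 and 0.074 for Gstz1. Under FEM1B siRNA that of Gstp1 became -0.31, and the siRNA effect on Gsto1 in control cells became -0.016. The number of genes with a called interaction, 807, was 1393 without a filter and 298 to 1868 when each library was left out; 7 of 12 libraries moved it by over 1.5 times. It was 1868 without replicate 2 of sgBACH1 with siFEM1B, 298 and 299 without replicate 1 or 3 of that group, 302 and 301 without replicate 1 or 3 of sgBACH1 with siCTRL, 381 without replicate 3 of sgCTRL with siCTRL and 399 without replicate 2 of sgCTRL with siFEM1B.

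Some differences that were not called, not all of them near 0, changed sign when a library was left out. These were, in knockout cells under control siRNA, Mgst3 (-0.11 to 0.029) and Gstcd (-0.048 to 0.081), and under FEM1B siRNA Gstm5 (-0.020 to 0.11) and Gstcd (-0.016 to 0.17). For the siRNA in control cells they were Gsto1 (-0.032 to 0.051), Gstm6 (-0.70 to 0.014) and Gstm2 (-0.0023 to 0.26), and in knockout cells Mgst1 (-0.10 to 0.12), Gstp1 (-0.036 to 0.0032), Gstp2 (-0.079 to 0.21) and Gstm4 (-0.49 to 0.074). For the interaction they were Gstt1 (-0.34 to 0.40), Gstt3 (-0.62 to 0.75) and Gstcd (-0.043 to 0.16). In the main fit the Gstt3 interaction was 0.30. The siRNA effect was -0.25 on Gstm4 in knockout cells and -0.23 on Gstm6 in control cells. The cause of these sign changes was not tested.

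Replicate numbers did not pair the libraries (correlations of deviations from -0.115 to 0.0788). With a replicate block, 6488, 7031, 5749, 5298 and 603 genes were called in the 5 contrasts, against 6702, 7246, 5981, 5539 and 807 without it. Among the members the block ended the Gsto1 interaction (adjusted p = 0.0522) and the Gstp1 difference under FEM1B siRNA (adjusted p = 0.0713).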
